A study of Mus musculus with 9 samples.

Results

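The genes of the DNA replication machinery were followed across 9 Affymetrix expression arrays of RAW 264.7 cells, a mouse macrophage line. A list of 44 genes was used, and a probe set belonged to it when the platform annotation gave it a single symbol from that list. This took in 80 of the 22626 probe sets tested, and they covered 43 of the 44 genes, out of 12393 genes named on the array. Chaf1a, the large subunit of chromatin assembly factor 1, was not analysed here, and 1 probe set that names a listed gene together with other genes was left out. Of the 43 genes, 18 had 1 probe set and 25 had several, and a gene stands below for its brightest probe set.

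Total RNA came from 3 untreated samples, 3 samples kept for 18 h with bacterial lipopolysaccharide (LPS) at 100 ng/ml, and 3 samples whose label gives constitutive overexpression of CstF-64. The gene Cstf2 encodes this protein, part of the cleavage stimulation factor that helps to form the 3' ends of mRNAs. No sample is labelled as a vector or clone control for CstF-64. The sources used here do not give the construct, or whether those cells were a clone or a pool, or whether replicates were separate cultures or repeated arrays. Each p-value can therefore speak only of the spread among these arrays, and that spread may be technical.

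A cell copies its DNA in S phase. The origin recognition complex (ORC) marks the start sites, and Cdc6 and Cdt1 help it to load the ring of Mcm2 to Mcm7, which becomes the replicative helicase once kinases and Cdc45 activate it. Primase and polymerase alpha then lay down primers, polymerases epsilon and delta extend them while held by the clamp PCNA, RPA covers the single strands, and Fen1 and DNA ligase I join the fragments of the lagging strand. Many of these genes are transcribed at the border of G1 and S phase under E2F transcription factors, and levels of their mRNAs are widely used as a sign of proliferation.

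LPS-treated cells had lower levels of most of this machinery. Of the 43 genes 34 fell and none rose, where "fell" and "rose" mean a Benjamini-Hochberg adjusted p under 0.05 in limma over all 22626 probe sets. Over all named genes, by contrast, 10.4% fell and 6.63% rose. The median log2 change of the 43 genes was -1.30, against -0.03 for all named genes, and single genes ranged from -2.76 (Tk1) to 0.18, leaving out Pole and Cdc6, whose LPS values were at or below background and give only a bound, and Tyms, which was at background throughout. The value was below 0 for 41 of the 43 genes and for 53.8% of all named genes. On the log2 scale 30 of the 43 genes fell by at least 2-fold and 10 by at least 4-fold, against 4.07% and 0.742% of all named genes. Values of the LPS arrays lay wholly below those of the untreated arrays for 39 genes, which was so for 20.6% of all named genes. These are levels in total RNA of a population, so fewer cells in S phase and less RNA per cell cannot be told apart. After each array was centred on its median, 32 of the 43 genes fell and none rose, although over all probe sets that centring turned the split from 2414 lower and 1341 higher to 1455 lower and 2228 higher.

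In median, the arrays labelled CstF-64 lay nearer to the untreated ones than the LPS arrays did. The median log2 difference of the 43 genes from the untreated mean was 0.06, -0.37 and -0.40 in CstF-64 arrays 1, 2 and 3. None of the 43 genes was called there in either direction in limma, against 0.169% of all named genes that fell and 0.105% that rose, and 4 (Pold1, Pole, Pole2 and Mcm4, all lower) had an unadjusted p under 0.05, as did 6.82% of all named genes. The median log2 change was -0.25, against 0.01 for all named genes, and 38 of the 43 values were below 0, as were 48.0% of all named genes. CstF-64 arrays 2 and 3 both lay below all untreated arrays for 31 of the 43 genes, a pattern not counted over all named genes. CstF-64 array 1 was within the untreated range for 26, above it for 12 and below it for 5. The LPS and CstF-64 comparisons both use the same 3 untreated arrays.

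**Figure D1:**
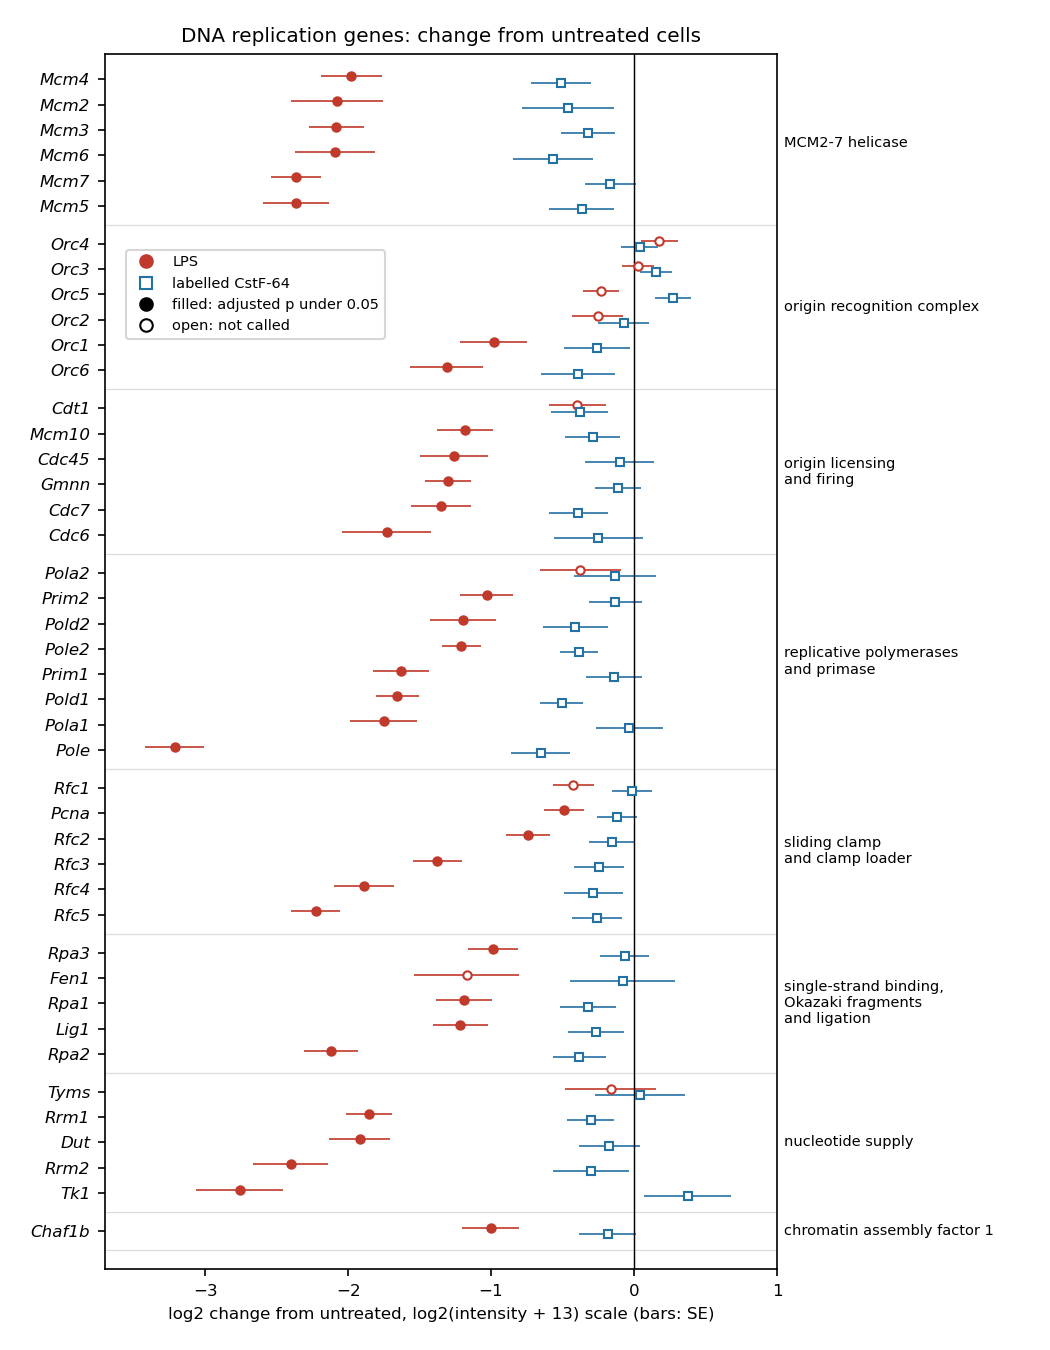
Change of each of the 43 genes from untreated cells, by role, on the log2(intensity + 13) scale with the SE from limma. Filled symbols are genes with an adjusted p under 0.05, and the LPS points of Pole and Cdc6 rest on signal at or below background. The 34 filled symbols are all LPS values and lie left of 0, while the squares of the arrays labelled CstF-64 lie between -0.65 and 0.37.

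The array medians lay between 42.75 and 49.3 after LPS and between 51.1 and 54.2 in the other groups, and the mean correlation of an array with the others of its group was 0.966 to 0.985. Signal at the 3' end over that at the 5' end, a measure of RNA quality, stood at 1.03 to 1.22 for actin. Of 16 macrophage markers 14 were above the background limit in all arrays of each group, among them Lyz2 (lysozyme, 4919 ± 844 in untreated cells, SD, n = 3), Cd14 and Cd68, while Mertk and Aif1 were dim. The summed level of that list ranged from 20044 to 27396 in untreated arrays, from 29014 to 31367 after LPS and from 21939 to 26725 in the arrays labelled CstF-64. After LPS 5 of the 16 macrophage markers rose and 2 fell, with log2 changes from -0.72 to 2.26 over the list. Of the markers for other cells, 11 of 15 for granulocytes and mast cells, 10 of 12 for lymphocytes and 11 of 14 for fibroblasts and endothelium were at or below background in all untreated arrays, as were 3 of 9 for osteoclasts. After LPS, 2 of 9 osteoclast markers rose (Mmp9 and Acp5), 1 of 15 for granulocytes and mast cells (S100a8), 1 of 14 for fibroblasts and endothelium (Dcn) and 0 of 12 for lymphocytes, and none of these fell. Beside these counts and those of the macrophage markers, 6.63% of all named genes rose after LPS and 10.4% fell. The summed level of the granulocyte and mast cell list was 257.0 to 276.3 in untreated arrays and 280.0 to 482.5 after LPS. That of the fibroblast and endothelial list was 317.4 to 381.2 and 375.4 to 527.5, and that of the osteoclast list 1275.4 to 2047.4 and 1297.9 to 2500.7. The part of these markers in the results was not tested. Cstf2 itself (probe set 1419645_at) had a mean of 358.0 ± 38.4 on the arrays labelled CstF-64, no higher than the 377.7 ± 18.0 of untreated cells. After LPS this probe set fell to 221.5 ± 26.1 (log2 -0.74, limma adjusted p = 0.00343). The dimmer Cstf2 1419644_at read 87.6 ± 8.57 on the arrays labelled CstF-64 and 116.3 ± 17.0 in untreated cells (limma adjusted p = 0.763). As the construct is not known, these values cannot tell whether CstF-64 was overexpressed. The label is used below only as a name for the arrays that carry it. The background limit, 31.2, is the brightest value of 27 bacterial control probe sets. In untreated cells 42 of the 43 genes were above it on all 3 arrays, and 36 were above it on all 9.

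Promoter letters were examined because the replication genes moved together after LPS. RefSeq promoters of the build GRCm38.p6 were at hand for 38 of the genes, 47 promoters in all, and the 250 bases before each start were searched. The E2F letters used were TTTGGCGC, TTTCCCGC, TTTCGCGC and TTTGCCGC on either strand, and overlapping matches were counted. They occurred in 8 of the 38 genes (21.1%), in 2.16% of all genes with a promoter and in 3.37% of those on the array. Of the 29 genes that fell after LPS and had a promoter 7 held them (24.1%), and of the 9 others 1 did, Orc3. The letters CCAAT, also read on both strands, were in 57.9% of the 38 genes against 39.9% of genes on the array, the letters TTTGAA in 13.2% against 13.8%, and TATAAA in 7.89% against 10.7%. A match is only a description of the letters.

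The stretches shown are those of the 4 genes with the smallest adjusted p after LPS among the genes that fell and carry the E2F letters. Each is 100 bases, written 5' to 3' on the strand of the gene, with the E2F letters of either strand in capitals. They lie at chr5:138171959-138172058 (minus strand) for Mcm7, chr8:75109346-75109445 (plus strand) for Mcm5, chr5:151651209-151651308 (minus strand) for Rfc3 and chr1:128359726-128359825 (minus strand) for Mcm6. Mcm7, Mcm5 and Mcm6 encode helicase subunits, and Rfc3 encodes a subunit of the clamp loader.
Mcm7: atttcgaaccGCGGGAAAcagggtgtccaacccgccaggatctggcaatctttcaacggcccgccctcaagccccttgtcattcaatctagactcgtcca
Mcm5: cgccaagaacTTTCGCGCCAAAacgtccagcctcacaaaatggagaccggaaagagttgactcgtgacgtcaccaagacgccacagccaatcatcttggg
Rfc3: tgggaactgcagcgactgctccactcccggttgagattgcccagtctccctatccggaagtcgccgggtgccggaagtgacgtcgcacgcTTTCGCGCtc
Mcm6: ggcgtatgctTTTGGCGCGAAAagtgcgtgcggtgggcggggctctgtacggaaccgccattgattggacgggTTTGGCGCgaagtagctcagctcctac
The Mcm5 capitals are 2 overlapping matches on opposite strands, 153 and 149 bases before the start. Mcm6 carries 3 matches, 2 of them overlapping in the same way at 110 and 106 bases and 1 at 47 bases. In Mcm7 the match begins 165 bases before the start of the promoter shown, and in Rfc3 it begins 10 bases before the start. Another Mcm7 promoter, at chr5:138171267-138171516, held no match. The other genes that fell and carry the letters were Cdc6, Orc1 and Pola1.

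All 6 subunits of the MCM ring fell after LPS, with a median log2 change of -2.09. Mcm5, on chromosome 8, read 529.9, 639.3 and 498.6 in untreated arrays, 72.9, 144.4 and 85.1 after LPS, and 530.9, 382.5 and 379.5 in the arrays labelled CstF-64. The LPS arrays were all below the untreated arrays. CstF-64 array 1 was inside the untreated range, and CstF-64 arrays 2 and 3 were below it. Mcm5 fell by 2.36 on the log2 scale after LPS (SE 0.23, limma adjusted p = 0.000114). Mcm7, on chromosome 5, read 1357.9, 1394.4 and 1238.8 in untreated arrays, 231.0, 324.9 and 202.0 after LPS, and 1421.1, 1101.8 and 1059.9 in the arrays labelled CstF-64. Again the LPS arrays stood wholly apart, with a log2 change of -2.36 (SE 0.18, limma adjusted p = 2.4e-05). CstF-64 array 1 was above the untreated range, and CstF-64 arrays 2 and 3 were below it.

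Mcm4 had the smallest change of the ring and still fell by 1.98 (SE 0.21, limma adjusted p = 0.000216). It read 601.5, 711.1 and 493.0 in untreated arrays, 116.2, 180.9 and 134.5 after LPS, and 539.7, 358.3 and 364.8 in the arrays labelled CstF-64. The first of the arrays labelled CstF-64 was inside the untreated range and the other two were below it. Mcm2, Mcm3 and Mcm6 fell by 2.08, 2.08 and 2.09. The 6 changes thus ranged from -2.36 to -1.98, with an SE of 0.18 to 0.32 for a single one. Second probe sets of 2 subunits did not pass: Mcm2 1434079_s_at went from 434.5 ± 93.6 without LPS to 194.7 ± 124 with it (limma adjusted p = 0.136), and the dim Mcm3 1420029_at from 43.6 ± 15.4 to 30.5 ± 10.4 (limma adjusted p = 0.390). The other 3 additional Mcm3 probe sets fell by 1.46 to 1.96.

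Of the 6 genes of the origin recognition complex 2 fell after LPS, Orc6 and Orc1, and the median of the group was -0.24. Orc6, the smallest subunit (chromosome 8), read 149.7, 113.1 and 86.9 in untreated arrays, 33.9, 47.1 and 34.6 after LPS, and 125.6, 69.9 and 65.9 in the arrays labelled CstF-64. All LPS arrays were below all untreated arrays, near the background limit, and the change was -1.31 (SE 0.26, limma adjusted p = 0.00708). Orc1, the largest subunit and an ATPase (chromosome 4), read 64.1, 75.5 and 53.6 in untreated arrays, 38.2, 21.0 and 20.9 after LPS, and 66.2, 38.8 and 51.6 in the arrays labelled CstF-64. Its groups did not overlap after LPS either, but 2 of the LPS arrays were at background. The fall of Orc1 (log2 -0.98, SE 0.23, limma adjusted p = 0.0175) was lost without LPS array 2 or 3 or untreated array 1 or 2, with adjusted p up to 0.0740.

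Orc2 to Orc5, which form the core of the complex with Orc1, were not called by their brightest probe sets. With the mean of a gene's probe sets, Orc2 (limma adjusted p = 0.0224) and Orc3 (limma adjusted p = 0.0453) were called as lower. Orc3, on chromosome 4, read 291.1, 263.8 and 237.3 in untreated arrays, 283.6, 256.8 and 267.1 after LPS, and 304.2, 297.7 and 282.3 in the arrays labelled CstF-64. The 3 groups overlapped, and the LPS change was 0.03, with a 95% interval from -0.22 to 0.28. The intervals of Orc2 (-0.65 to 0.14), Orc4 (-0.11 to 0.47) and Orc5 (-0.51 to 0.05) also left out a 2-fold fall. Dimmer probe sets differed for 2 of these genes. Orc3 1416117_at read 33.8, 44.1 and 31.1 in untreated arrays and 6.2, 24.6 and 5.8 after LPS, at least 1.15-fold lower (limma adjusted p = 0.0257). Orc2 1418225_at went from 107.4 ± 32.6 to 51.7 ± 6.81 (log2 -0.86, limma adjusted p = 0.0233), while the brightest Orc2 probe set read 135.6 ± 24.9 and 110.6 ± 1.46 (limma adjusted p = 0.406).

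Among the 6 genes of origin licensing and firing, 5 fell, with a median of -1.28 for the group. Cdc6, the ATPase that loads the ring with ORC (chromosome 11), read 113.3, 113.8 and 73.2 in untreated arrays, 20.6, 27.0 and 15.2 after LPS, and 142.1, 54.4 and 65.4 in the arrays labelled CstF-64. All LPS arrays were at or below background, so Cdc6 was at least 3.14-fold lower after LPS (limma adjusted p = 0.00455). Cdc7, the kinase that fires origins (chromosome 5), read 114.6, 124.8 and 92.7 in untreated arrays, 32.7, 42.0 and 31.7 after LPS, and 111.2, 65.6 and 71.9 in the arrays labelled CstF-64. The LPS arrays did not overlap the untreated ones, with a log2 change of -1.35 (SE 0.21, limma adjusted p = 0.00194).

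Cdt1, the partner of Cdc6 in loading, was the gene of this group that was not called. It read 1164.5, 1133.8 and 910.3 in untreated arrays, 668.1, 884.2 and 882.9 after LPS, and 1108.8, 698.0 and 694.4 in the arrays labelled CstF-64. The LPS arrays were below the untreated arrays, but by less than for the other genes of the group, with a log2 change of -0.40 (SE 0.20, 95% interval -0.84 to 0.05, limma adjusted p = 0.230). Gmnn, which encodes geminin, the inhibitor of Cdt1, fell from 488.2 ± 82.7 to 189.8 ± 26.7 (log2 -1.30). Cdc45, a partner of the active helicase, fell by 1.26, and Mcm10, which acts in helicase activation, by 1.18. Dimmer probe sets of Mcm10 (log2 -0.46) and Cdc7 (log2 -0.57) did not pass the test.

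**Figure D2:**
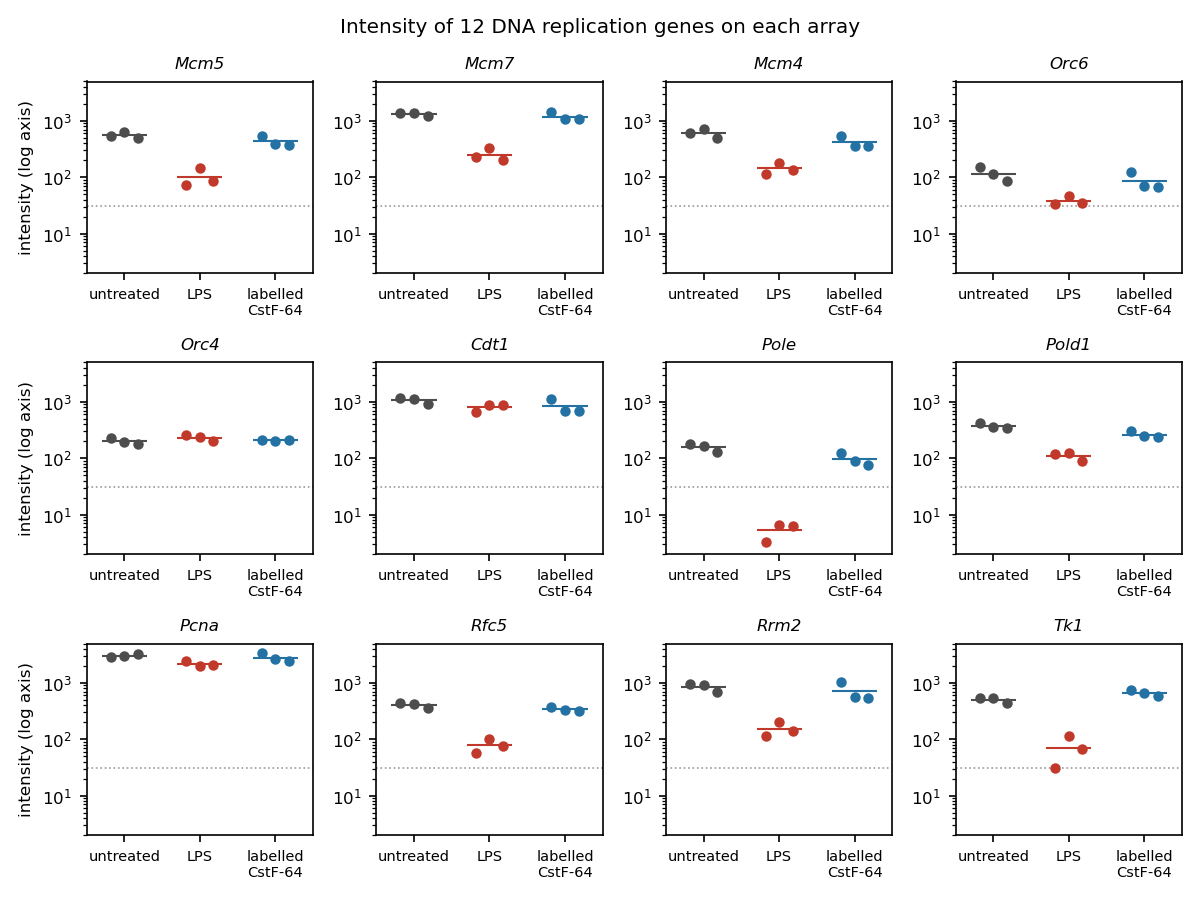
Intensity on each array (points, log axis) and group mean (bar) for 12 of the genes, with the background limit of 31.2 as a dotted line. LPS arrays lie below the untreated arrays in every panel except Orc4, and the arrays labelled CstF-64 lie within or under the untreated range in most panels and above it for Tk1.

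Of the 8 genes for replicative polymerases and primase, 7 fell after LPS, with a median of -1.42. Pole, the catalytic subunit of polymerase epsilon, which copies the leading strand (chromosome 5), fell to signal at background. It read 179.8, 167.5 and 126.8 in untreated arrays, 3.3, 6.5 and 6.2 after LPS, and 124.5, 88.2 and 77.0 in the arrays labelled CstF-64. The LPS arrays were all below background, which gives a level at least 5.01-fold lower (limma adjusted p = 1.0e-05). The arrays labelled CstF-64 were also all below the untreated arrays, but that change (log2 -0.65, SE 0.21) was not called (limma adjusted p = 0.512).

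Pola1, the catalytic subunit of polymerase alpha on the X chromosome, read 250.9, 216.0 and 155.7 in untreated arrays, 41.5, 79.4 and 40.0 after LPS, and 191.3, 199.0 and 207.2 in the arrays labelled CstF-64. Its LPS arrays stood apart from both other groups, with a log2 change of -1.75 (SE 0.23, limma adjusted p = 0.000876). Pola2, the regulatory subunit of the same polymerase (chromosome 19), had the smallest change of this group. It read 161.7, 102.6 and 98.2 in untreated arrays, 134.4, 70.9 and 70.2 after LPS, and 147.1, 83.6 and 96.9 in the arrays labelled CstF-64. Array 1 was the highest in each of the 3 groups and the groups overlapped, with a 95% interval of the LPS change from -1.01 to 0.26.

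The primase genes fell too, Prim1, the catalytic subunit, by 1.63 and Prim2, the large subunit, by 1.03. For polymerase delta, which extends the lagging strand, Pold1, the catalytic subunit, fell from 375.2 ± 36.2 to 110.8 ± 18.6 (log2 -1.66, limma adjusted p = 8.3e-05) and Pold2, an accessory subunit, by 1.20. Pole2, the second subunit of polymerase epsilon, fell by 1.21. In the arrays labelled CstF-64 this group held 4 of the 5 genes whose values lay wholly below the untreated arrays, Pold1, Pole, Pole2 and Pold2, the other being Rfc2. Among all named genes 6.02% did so, and none of the 5 passed the test (limma adjusted p = 0.464 to 0.992).

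In the sliding clamp and its loader 5 of 6 genes fell after LPS, with a median of -1.06 and single changes from -2.23 to -0.42. Rfc5, a small subunit of the loader RFC (chromosome 5), read 435.1, 424.4 and 365.1 in untreated arrays, 57.3, 100.5 and 77.4 after LPS, and 370.4, 334.6 and 312.1 in the arrays labelled CstF-64. The LPS arrays lay below both other groups, with a change of -2.23 (SE 0.17, limma adjusted p = 3.0e-05). Rfc4, another small subunit (chromosome 16), read 282.1, 202.4 and 186.4 in untreated arrays, 44.7, 51.7 and 53.8 after LPS, and 239.0, 145.8 and 162.3 in the arrays labelled CstF-64. The picture was the same, with a change of -1.89 (SE 0.21, limma adjusted p = 0.000263).

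Rfc1, the large subunit of the loader (chromosome 5), read 154.8, 165.6 and 129.3 in untreated arrays, 94.0, 111.5 and 119.5 after LPS, and 136.8, 150.7 and 155.6 in the arrays labelled CstF-64. Its LPS arrays were lower without overlap, but the change (log2 -0.42, SE 0.14) was not called (limma adjusted p = 0.0723). The dimmer Rfc1 1451920_a_at fell from 56.5 ± 3.35 to 25.3 ± 6.81 (log2 -0.87, limma adjusted p = 0.00739). Rfc3 fell by 1.38 and Rfc2 by 0.74, and the call of Rfc2 was lost after median centring (limma adjusted p = 0.0502).

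Pcna, the clamp itself, had the smallest change among the 34 genes that fell. It read 2939.5, 2983.9 and 3199.1 in untreated arrays, 2415.8, 2029.5 and 2059.7 after LPS, and 3331.4, 2640.0 and 2480.3 in the arrays labelled CstF-64. The LPS arrays were below the untreated arrays by a log2 change of -0.49 (SE 0.14, limma adjusted p = 0.0386). That call was lost under 7 of 19 alternative settings, with adjusted p from 0.00393 to 0.134 over all of them. The 7 were median centring and leaving out CstF-64 array 2, LPS array 2 or 3, or any of the untreated arrays.

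Of the 5 genes for single-strand binding, Okazaki fragments and ligation, 4 fell, with a median of -1.19. Rpa2, the middle subunit of RPA (chromosome 4), read 178.3, 219.7 and 187.0 in untreated arrays, 34.4, 41.6 and 28.9 after LPS, and 189.2, 136.4 and 120.1 in the arrays labelled CstF-64. The LPS arrays were at or near background and below all others, a change of -2.12 (SE 0.19, limma adjusted p = 6.7e-05). Lig1, DNA ligase I (chromosome 7), read 479.0, 405.1 and 329.7 in untreated arrays, 196.5, 154.8 and 147.4 after LPS, and 427.0, 292.7 and 288.3 in the arrays labelled CstF-64. It fell without overlap by 1.21 (SE 0.19, limma adjusted p = 0.0023).

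Rpa3, the small subunit of RPA (chromosome 6), read 369.2, 223.9 and 234.5 in untreated arrays, 130.9, 130.9 and 126.5 after LPS, and 257.6, 252.7 and 258.6 in the arrays labelled CstF-64. It had the smallest change of this group and fell by 0.99 (SE 0.17, limma adjusted p = 0.00397), again with no overlap. Rpa1, the large subunit, fell by 1.19. Fen1, the flap endonuclease, read 566.1 ± 99.7 in untreated cells and 265.7 ± 125 after LPS in its brightest probe set, with LPS values of 122.2, 323.4 and 351.4. The LPS arrays were lower without overlap, yet their spread left the change of -1.17 (SE 0.37) uncalled (limma adjusted p = 0.0573). It was called under 6 of 19 alternative settings, with adjusted p from 0.0181 to 0.174, and the other probe set, 1421731_a_at, fell by 1.45 (limma adjusted p = 0.0126).

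Enzymes that supply deoxynucleotides fell by a median of 1.92, 4 of the 5 genes being called. Tk1, the S-phase thymidine kinase (chromosome 11), read 538.4, 544.3 and 438.4 in untreated arrays, 31.2, 112.1 and 67.9 after LPS, and 736.7, 650.4 and 595.2 in the arrays labelled CstF-64. The 3 groups did not overlap: LPS arrays were lowest, by 2.76 (SE 0.31, limma adjusted p = 0.00028), and the arrays labelled CstF-64 highest, by 0.37 (SE 0.31, limma adjusted p = 0.959). Rrm2, the S-phase subunit of ribonucleotide reductase (chromosome 12), read 943.2, 912.1 and 686.2 in untreated arrays, 116.1, 199.2 and 139.9 after LPS, and 1025.6, 559.5 and 543.3 in the arrays labelled CstF-64. The LPS arrays stood wholly apart, with a fall by 2.40 (SE 0.26, limma adjusted p = 0.00027), and the other 2 Rrm2 probe sets fell by 2.34 and 2.69. For Rrm2, CstF-64 array 1 was above the untreated range, and CstF-64 arrays 2 and 3 were below it.

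Rrm1, the large subunit of the reductase, fell by 1.85, and Dut, which removes dUTP, by 1.92. Tyms, thymidylate synthase, was at or below background on all 9 arrays, with values of 2.6, 13.4 and 12.8 in untreated arrays, 3.2, 2.8 and 16.6 after LPS, and 2.6, 11.9 and 16.9 in the arrays labelled CstF-64. No order can be read from these. Chaf1b, the middle subunit of chromatin assembly factor 1, which places histones on new DNA (chromosome 16), read 136.0, 133.9 and 89.4 in untreated arrays, 51.4, 58.2 and 47.7 after LPS, and 131.0, 88.3 and 91.6 in the arrays labelled CstF-64. It fell by 1.00 after LPS (SE 0.20, limma adjusted p = 0.00781), with no overlap.

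At the level of probe sets, 57 of the 80 fell after LPS and none rose, against 10.7% and 5.93% of all probe sets tested. A fall in at least 1 probe set was seen for 38 of the 43 genes, a count that genes with several probe sets raise. It was not made over all named genes. The 5 genes with no probe set that fell were Orc4, Orc5, Cdt1, Pola2 and Tyms. Over 19 alternative settings, 31 of the 34 genes that fell kept the call in all, the exceptions being Orc1, Pcna and Rfc2. Some of the brightest probe sets carry suffixes that mark possible cross-hybridisation, _s_at for Mcm3 and Mcm7 and _x_at for Rrm2 and Fen1.

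The single arrays of a group differed in how far they lay from the untreated mean. The median log2 difference of the 43 genes was 0.15, 0.07 and -0.19 in untreated arrays 1, 2 and 3, and -1.57, -1.16 and -1.36 in the LPS arrays. In the arrays labelled CstF-64 it was 0.06, -0.37 and -0.40. CstF-64 array 1 was the highest of its group for 39 of the 43 genes, whereas it was highest for 39.9% of all named genes. Untreated array 3 was the lowest of its group for 38 of the 43, against 32.3% of all named genes, and LPS array 2 was the highest of its group for 28, against 25.8%. Within the arrays labelled CstF-64 the medians were 0.10, -0.46 and -0.52 for origin licensing and firing and -0.03, -0.63 and -0.61 for the MCM ring. They lay closer together for the polymerases and primase, at -0.19, -0.38 and -0.42.

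**Figure D3:**
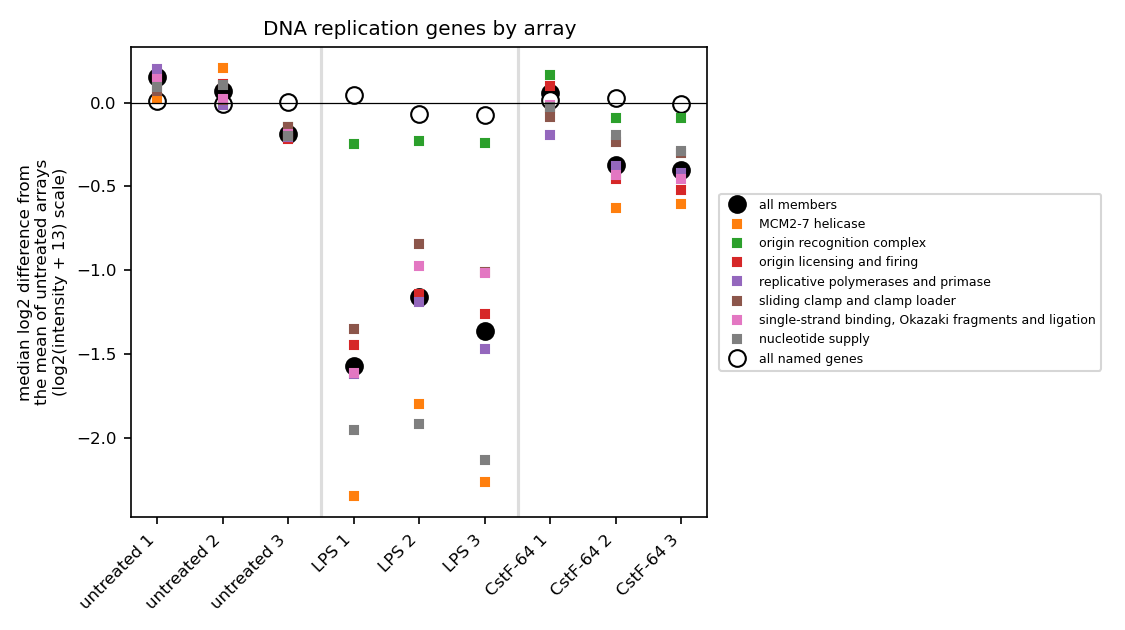
Median log2 difference from the mean of the untreated arrays, per array, for all 43 genes (black circles), for the role groups with more than 1 gene (squares) and for all named genes (open circles). The LPS arrays lie between -1.57 and -1.16 for the 43 genes, and CstF-64 array 1 lies at 0.06 beside -0.37 and -0.40 in the other two.

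No call among the 43 genes appeared in the arrays labelled CstF-64 when any single array was left out. The median change moved from -0.25 to -0.36 without CstF-64 array 1 or without untreated array 3, and to -0.15 without CstF-64 array 2 or 3. For 40 of the 43 genes the 95% interval of the change left out a 2-fold fall. The 3 whose intervals reached further were Mcm2 (-1.18 to 0.26), Mcm6 (-1.19 to 0.06) and Pole (-1.12 to -0.19). Values wholly above the untreated arrays were seen for Orc5 (log2 0.27, limma adjusted p = 0.790) and Tk1, where 7.4% of all named genes had such values.

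Set directly against the LPS arrays, the arrays labelled CstF-64 were higher for 33 of the 43 genes and lower for none, while 9.47% of all named genes were higher and 6.36% lower. Values lay wholly above the LPS arrays for 37 of the 43, against 19.6% of all named genes. This contrast is also the test that the changes in the 2 groups differ, since the untreated arrays cancel. The 33 were 32 of the 34 genes that fell after LPS, together with Orc5 (277.2 ± 29.3 against 191.1 ± 3.35, limma adjusted p = 0.0247). The difference was not called for Orc1 (limma adjusted p = 0.0661) and Pcna (limma adjusted p = 0.113). The median difference was 1.09, and Tk1 had a difference of 3.13 (SE 0.31, limma adjusted p = 0.000144). Pole, at background after LPS, was at least 3.03-fold higher (limma adjusted p = 4.1e-05).

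Other genes that work beside the 43 were counted from lists that hold none of them. These lists were chosen with earlier results of these data known, so their counts are only descriptive. Over all named genes 10.4% fell after LPS and 6.63% rose. Of 13 measured helicase activators and fork proteins 10 fell after LPS and none rose. They included Topbp1, which helps to load Cdc45 (493.4 ± 81.3 to 96.8 ± 40.3, log2 -2.27), Timeless of the fork protection complex (log2 -1.72) and Dbf4, the activator of Cdc7 (log2 -1.19). Of 16 genes of the replication checkpoint 13 fell, among them Brca1 (262.8 ± 24.6 to 55.9 ± 12.3, log2 -2.01), Brca2 (log2 -1.22) and the kinase Chek2 (log2 -1.07). Of 10 further polymerase subunits and Okazaki fragment enzymes 5 fell, including Top2a, the topoisomerase that untangles new DNA (1123 ± 60.7 to 157.6 ± 44.4, log2 -2.77), the nuclease Dna2 (log2 -1.41) and Pole3 (log2 -0.94). The limma adjusted p of these 9 named genes lay between 9.1e-06 and 0.00633.

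Of 14 genes of chromatin assembly and maintenance methylation 7 fell, among them the histone chaperones Nasp (378.9 ± 101 to 90.1 ± 26.4, log2 -1.93) and Asf1b (log2 -1.81), and Uhrf1, which guides methylation to new DNA (log2 -1.78). Of 20 further enzymes and carriers of nucleotide supply 9 fell, including Cad, which starts pyrimidine synthesis (398.4 ± 28.4 to 105.9 ± 19.5, log2 -1.80), and the nucleoside carrier Slc29a1 (log2 -1.21). In this list 1 gene rose, Samhd1, which breaks down deoxynucleotides (423.6 ± 14.3 to 730 ± 138, log2 0.75, limma adjusted p = 0.00444). Samhd1 thus moved opposite to Rrm1 and Rrm2, whose product makes deoxynucleotides.

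Of 29 E2F factors and regulators of S-phase entry 15 fell and 1 rose. Ccna2, the S-phase cyclin A, went from 895.9 ± 92.1 to 118.1 ± 30.0 (log2 -2.81, limma adjusted p = 9.1e-06), and the E2F family repressor E2f8 from 143.8 ± 7.11 to 22.1 ± 10.2 (log2 -2.20). The LPS values of E2f8 were 13.2, 33.2 and 19.8, beside the background limit of 31.2, which limits the size of its change. The gene that rose was Myc, a growth regulator, from background to 389.1 ± 71.1, at least 12.3-fold (limma adjusted p = 2.1e-05). The activator E2f1 was among those that fell (log2 -0.60), while E2f3 was not called (log2 0.11). These 2 were named after their values were seen.

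The list of polymerases of mitochondria and repair also holds proteins that are not polymerases. In it 3 of 15 genes fell, against 10.4% of all named genes. The median of the list was -0.19. Tfam, which packages mitochondrial DNA, fell from 276.7 ± 53.4 to 152.8 ± 14.8 (log2 -0.79, limma adjusted p = 0.00818), and the repair polymerase Poli and the mitochondrial polymerase Polg fell by 0.81 and 0.60. Only 1 gene of this list fell after median centring, quantile normalization, a fit of the 2 groups alone, or the loss of any untreated array. In the arrays labelled CstF-64 no gene of the 7 lists was called against untreated cells in limma, with 2 of 13, 1 of 10, 3 of 20, 0 of 14, 0 of 29, 2 of 16 and 0 of 15 at an unadjusted p under 0.05 in the lists of fork proteins, polymerase subunits, nucleotide enzymes, chromatin, S-phase entry, checkpoint and repair polymerases, beside the 6.82% of all named genes.

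**Figure D4:**
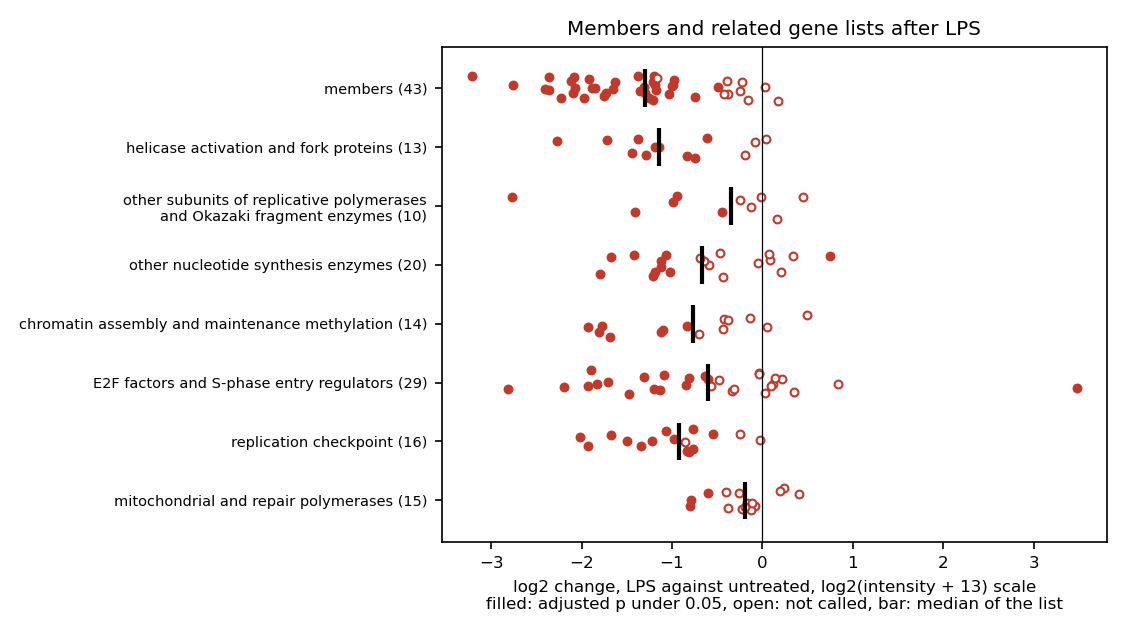
Log2 change after LPS of the 43 genes (top) and of the 7 related lists, with the number measured in brackets. Filled points are genes with an adjusted p under 0.05, open points are not called, and the bar is the median, which runs from -1.30 for the 43 genes to -0.19 for the polymerases of mitochondria and repair.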

How the data were processed

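Per the labels, the RNA was prepared with an Ultraspec kit, and a core facility hybridised and measured the arrays. The authors deposited a linear intensity for each probe set on each array, scaled to a common level (means after trimming 2% from each end of 150.05 to 150.06). The software used was not given in the sources used here. Names of probe sets were taken from the platform annotation, with symbols and chromosomes updated to GRCm38.p6. Values were transformed here to log2(intensity + 13), 13 being 0.25 of the median intensity of 50.2, which understates changes of dim probe sets. A model of group means over the 9 arrays was fitted in limma 3.58.1 under R 4.3.3 (lmFit, then eBayes with a trend on intensity). Tests were two-sided, and p-values were adjusted by Benjamini-Hochberg over 22626 non-control probe sets with a threshold of 0.05. The fit was tested on simulated data. Where all arrays of a group were at or below 31.2, "at least N-fold" is the brighter group's geometric mean over 31.2.

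The genes and lists were chosen with earlier results of these data known. Values in each array are given for the 2 genes of a role group with the largest and the 1 with the smallest change after LPS, for genes whose probe sets disagree in call and direction, and, outside this rule, for Pcna. From each related list up to 3 genes were taken by adjusted p, including those against the majority. Replicate numbers were not treated as pairs in the main fit. Correlations of deviations from the group means were -0.06 to 0.16 for same-numbered arrays and -0.24 to 0.20 for differently numbered ones. Such values cannot settle whether the samples were paired. Alternatives were other normalizations, pseudocounts of 1 and 50, a filter on dim probe sets, other fits, the mean of a gene's probe sets, and leaving out each array. With 3 arrays a group, precision is limited by their number.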

Additional observations from a re-analysis of the deposited data

How the results depend on the processing

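The count of genes that fell after LPS was 32 to 38 under the alternative settings and 32 to 35 without single arrays, and none rose. The median change was -1.05 with a pseudocount of 50, and -1.43 to -1.17 without single arrays. With the replicate number as a block 34 genes fell, none was called in the arrays labelled CstF-64, and 32 were higher there than after LPS. The block left 19 probe sets lower and 13 higher over the whole array between CstF-64 and untreated arrays, against 33 and 23 without it. Array weights gave 124 and 106 there. Without single arrays these counts ranged from 10 to 57 and from 8 to 53. The probe sets that fell after LPS numbered 1455 (2228 rose) after median centring and 1475 to 2653 without single arrays, and those that rose 924 to 1465. For CstF-64 against LPS the median was 0.82 with a pseudocount of 50 and 0.92 to 1.24 without single arrays, 3409 probe sets were higher with array weights, 2097 were lower and 1249 higher after median centring, and without single arrays 1239 to 2067 were higher and 854 to 1255 lower.

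The changes listed next turned in sign and had not been called in the values reported above; the ranges are over the fits without single arrays. After LPS they were Orc3 (-0.49 with the mean of its probe sets, which was called, limma adjusted p = 0.0453, range -0.041 to 0.099) and Orc4 (-0.13 with that mean). Between CstF-64 and untreated arrays they were Pola1 (0.0035 with array weights, range -0.21 to 0.11), Rfc1 (0.0092 with array weights, 0.0066 after quantile normalization, range -0.11 to 0.055) and Tyms (-0.043 with the mean of its probe sets, range -0.20 to 0.31). Leaving out single arrays also turned Pola2 (-0.35 to 0.074), Fen1 (-0.36 to 0.068), Orc2 (-0.24 to 0.061), Cdc45 (-0.33 to 0.075), Gmnn (-0.22 to 0.017), Rpa3 (-0.19 to 0.15), Dut (-0.35 to 0.099) and Orc4 (-0.025 to 0.12). Between CstF-64 and LPS they were Cdt1 (-0.23 with array weights, -0.14 after median centring, range -0.21 to 0.13), Orc4 (0.25 with the mean of its probe sets) and Orc3 (-0.031 after median centring). The cause was not tested. Signal at background limits Tyms, and the LPS values of Pole and Cdc6. It also limits in part the LPS values of Orc1, with 1 LPS array above background. Rpa2, Rfc3 and Tk1 had 2 LPS arrays above background.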
